A study of Aspergillus niger with 6 samples.

Results

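The 10 genes described here encode the enzymes that carry glucose to pyruvate in Aspergillus niger, from hexokinase and glucokinase to pyruvate kinase. They were taken by their identifiers in the third column of the deposited tables out of 15431 genes listed, and the rule uses identifiers and no expression value. The members were, however, chosen with earlier results of these data known. Each of the 10 identifiers stood in 1 row, and all 10 genes had enough counts to be among the 6181 genes tested. A RefSeq symbol was found for 6 of them (hxk, GlkA, pfkA, tpiA, gpdA and pkiA). The other 4 (pgiA An16g05420, aldolase An02g07470, pgkA An08g02260 and enolase An18g06250) carry the enzyme name under which their identifier was listed.

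RNA was sequenced from mycelium of strain N402 grown in shake flasks at 28 °C, with 2 cultures (A and B) in each of 3 conditions. In the condition called glucose-added here, mycelium grown on 1% glucose for 48 h was washed, kept on 1% ball-milled willow wood for 24 h, and then given glucose for 5 h. Willow cultures had the same first 48 h on glucose and 24 h on willow, with no glucose added. Glucose cultures were grown for 48 h on glucose and were not washed or moved. Willow and glucose cultures therefore differ in carbon source, transfer and age together, and glucose-added and willow cultures in added glucose and 5 h of age together, and these cannot be told apart.

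Glycolysis splits glucose into a pair of triose phosphates and oxidises them to pyruvate, and A. niger is known for the strong flow through this pathway that feeds its citric acid production. The upper pathway phosphorylates and cleaves the sugar, and the lower pathway converts the triose phosphates to pyruvate with a gain of ATP. Phosphofructokinase and pyruvate kinase act in one direction only, whereas the steps between aldolase and enolase also run backwards when sugar is made from smaller carbon compounds. Phosphoglycerate mutase, which acts between phosphoglycerate kinase and enolase, is not among the 10.

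Reads counted to genes numbered 434508 to 775667 per library, between 1.46% and 3.15% of all reads, so that single members rested on 12 to 947 counts. The 10 genes together took 0.588% and 0.542% of these reads in the glucose-added libraries A and B, 0.229% and 0.214% in the willow libraries, and 0.450% and 0.480% in the glucose libraries. Both willow libraries were below the other 4. The libraries matched their labels in the willow-induced genes cbhA, cbhB, xlnR and xynB, whose summed level was 1433 and 1027 CPM in glucose-added, 51296 and 50440 CPM in willow, and 97.4 and 151 CPM in glucose libraries. CPM are counts scaled to 1000000 counts of the TMM-adjusted library size. Of 4 genes listed as conidiation markers, An09g05730 made up most of the sum, which was 180 and 125 CPM in glucose-added, 211 and 185 CPM in willow, and 76.8 and 97.9 CPM in glucose libraries. Only 1 of the 4, An09g05730, passed the count filter, and the others did not all follow the sum. An01g08900 had 2.18 and 0 CPM in willow and 4.11 and 9.67 CPM in glucose libraries. For An01g03750 the values were 4.35 and 11.1 CPM in willow and 8.23 and 9.67 CPM in glucose libraries. For An01g10540 they were 23.9 and 11.1 CPM in willow and 1.37 and 3.63 CPM in glucose libraries. The part of sporulating hyphae in the differences below was not tested, and in these bulk samples fewer hyphae of a kind and less of a transcript per hypha cannot be told apart.

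**Figure D1:**
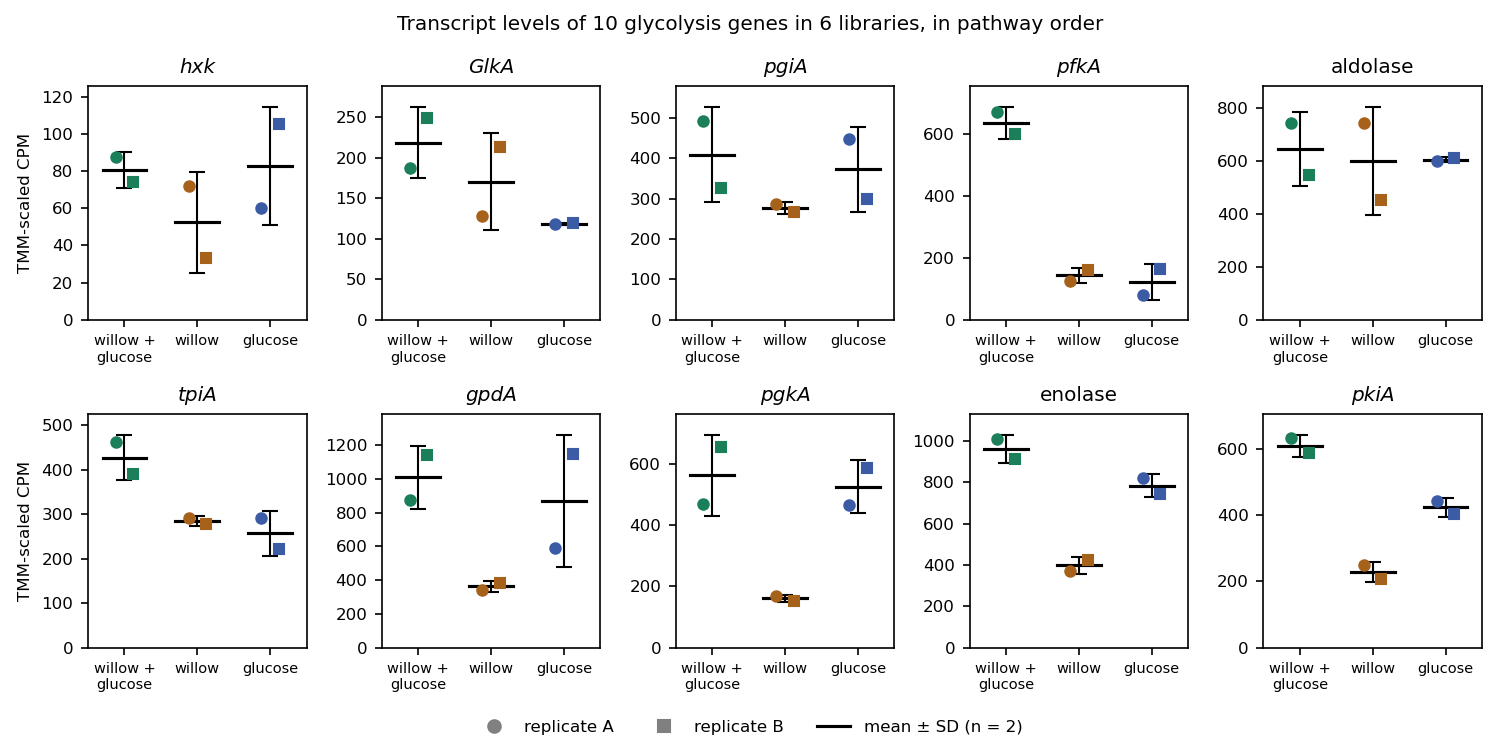
TMM-scaled CPM of the 10 genes (y axis, from 0, scaled per panel) in the glucose-added, willow and glucose cultures (x axis, left to right), with a circle for replicate A, a square for replicate B and bars for mean ± SD (n = 2). The willow points of gpdA, pgkA, enolase and pkiA lie below all other points, and the glucose-added points of pfkA, at 671 and 599 CPM, lie far above the other 4.

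The first comparison set mycelium on willow for 24 h against mycelium grown on glucose for 48 h. Transcripts of 4 of the 5 lower-pathway genes fell on willow, namely gpdA, pgkA, enolase and pkiA, by 1.85-fold to 3.28-fold. None of the 5 upper-pathway genes passed the test in either direction. Of the 10 genes, 4 were lower and 0 higher on willow, where 31.1% of all 6181 genes tested were called, 13.5% lower and 17.6% higher. A gene was called where its p from edgeR's quasi-likelihood test, after Benjamini-Hochberg adjustment over all genes tested, was under 0.05. The median log2 fold change was -0.53 over the 10 genes, -0.01 over the upper and -0.98 over the lower pathway, beside -0.08 over all genes tested.

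The gene pgkA encodes phosphoglycerate kinase, which makes the first ATP of the lower pathway. It had 168 and 152 CPM in willow libraries A and B, against 465 and 585 CPM in glucose libraries A and B. The willow values were close together and far below both glucose values. The log2 fold change was -1.71 ± 0.34 (SE; edgeR adjusted p = 3.9e-04), the largest decrease among the 10, and it was called under all 17 alternatives, with values from -2.76 to -1.58. The value of -2.76 came from the deposited RPKM values, a scale on which the median of all genes shifted by -0.93.

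The gene gpdA encodes glyceraldehyde phosphate dehydrogenase, the oxidising step of the pathway, and the promoter of its Aspergillus nidulans counterpart is widely used for strong expression. It had 340 and 385 CPM in willow libraries, against 591 and 1145 CPM in glucose libraries. The groups did not overlap, but the glucose cultures differed 1.94-fold from each other. Its log2 fold change was -1.26 ± 0.37 (edgeR adjusted p = 0.00973), and the call was lost without glucose B (-0.75, adjusted p = 0.167) or willow A (-1.18, adjusted p = 0.0560).

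Enolase, which forms phosphoenolpyruvate, had 370 and 426 CPM in willow and 823 and 745 CPM in glucose libraries. The replicates agreed within 1.15-fold in both conditions. The log2 fold change was -0.98 ± 0.33 (edgeR adjusted p = 0.0258). Without glucose A (adjusted p = 0.0709), willow A (0.165) or willow B (0.0675) it was not called.

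The gene pkiA encodes pyruvate kinase, the last and irreversible step. It had 250 and 208 CPM in willow and 444 and 404 CPM in glucose libraries, again without overlap. Its log2 fold change of -0.89 ± 0.33 (edgeR adjusted p = 0.0415) was the smallest of the 4 and the least stable. The call was lost when any 1 of the 6 libraries was left out (adjusted p from 0.0508 to 0.211), with RLE scaling (0.0582), with DESeq2 (0.0651) and in a fit of both groups alone (0.0634). The number of members called lower was 2 without glucose A, 2 without glucose B, 1 without willow A and 2 without willow B.

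The remaining lower-pathway gene, tpiA, encodes the isomerase that joins both triose phosphates into one stream. It had 292 and 277 CPM in willow libraries, against 292 and 221 CPM in glucose libraries (0.15 ± 0.33, edgeR adjusted p = 0.778). The ranges overlapped.

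In the upper pathway, the aldolase gene, whose product splits the sugar, averaged 598 ± 204 CPM on willow and 605 ± 9.74 CPM on glucose (SD, n = 2 each; log2 fold change -0.01 ± 0.34). Phosphofructokinase, the committing step of glycolysis, is encoded by pfkA, which had 126 and 161 CPM in willow and 79.5 and 163 CPM in glucose libraries (0.23 ± 0.37). The isomerase gene pgiA had 287 and 266 CPM in willow and 447 and 299 CPM in glucose libraries (-0.43 ± 0.34). For pgiA the groups did not overlap, yet the adjusted p was 0.373 (edgeR). It was called lower on the deposited RPKM values, at -1.48 (limma-trend adjusted p = 0.0336, pseudocount 0.1), a scale on which the median of all genes shifted by -0.93. Without a filter on low values it was not called (limma-trend adjusted p = 0.124).

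Both sugar kinase genes were among the least abundant of the 10. The hexokinase gene hxk had 71.8 and 33.2 CPM in willow and 60.3 and 105 CPM in glucose libraries (-0.63 ± 0.44, edgeR adjusted p = 0.299). Willow B rested on 12 counts (95% Poisson interval 6.20 to 21.0, counting error only), and the log2 fold change ran from -1.32 without willow A to -0.22 without glucose B. On the same RPKM scale hxk was called lower with a pseudocount of 0.1 (-1.62, limma-trend adjusted p = 0.0364). It was not called with a pseudocount of 1 (limma-trend adjusted p = 0.0535) or without a filter on low values (0.121). The glucokinase gene GlkA had 128 and 213 CPM in willow and 118 and 120 CPM in glucose libraries (0.51 ± 0.35, edgeR adjusted p = 0.292). The hxk groups overlapped and the GlkA groups did not, and the willow replicates differed 2.16-fold for hxk and 1.66-fold for GlkA.

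**Figure D2:**
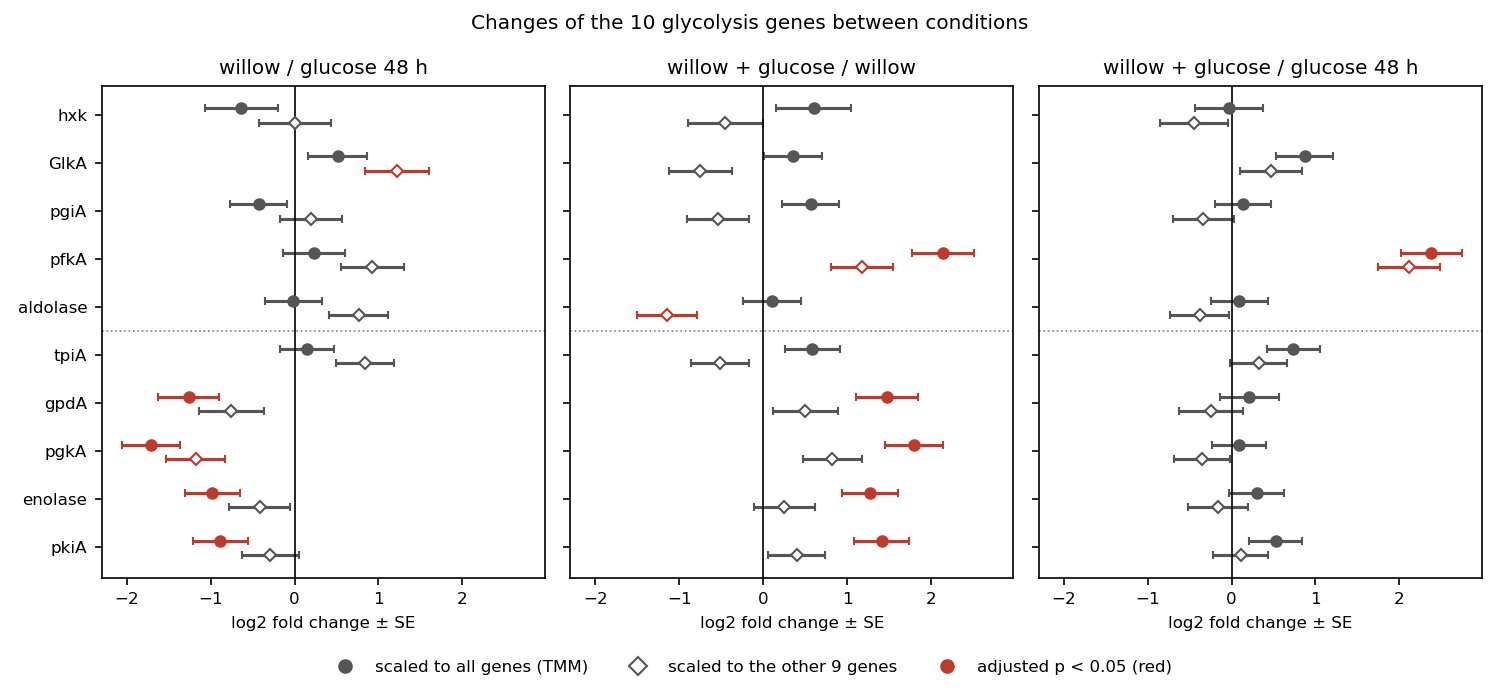
Log2 fold change ± SE (x axis) of each gene in pathway order (y axis) in the 3 comparisons, from the fit scaled to all genes (circles) and from fits scaled to the summed counts of the other 9 genes (diamonds), with calls in red. In the left panel the 4 red circles are gpdA, pgkA, enolase and pkiA, and in the right panel pfkA alone is red on both scales.

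The second comparison set willow cultures given glucose for 5 h against willow cultures. All 10 genes had a positive log2 fold change, from 0.11 to 2.15, and 5 passed the test: pfkA and the same 4 lower-pathway genes that were lower on willow. Both comparisons use the willow libraries, so this is not a second measurement of the low willow level. Of all genes tested, 37.8% were called, 17.2% higher and 20.5% lower (edgeR adjusted p under 0.05), and none of the 10 was lower. A positive log2 fold change was found for 3185 of the 6181 genes tested. The median log2 fold change was 0.94 over the 10 genes, 0.57 over the upper and 1.41 over the lower pathway, beside 0.04 over all genes tested.

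The largest change was in pfkA, which had 671 and 599 CPM in glucose-added libraries, against 126 and 161 CPM in willow libraries. The counts behind these values were 543 and 259 in glucose-added and 58 and 58 in willow libraries. The log2 fold change was 2.15 ± 0.37, or 4.44-fold (edgeR adjusted p = 7.2e-05), and it was called under all 17 alternatives.

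In the lower pathway, pgkA had 468 and 654 CPM in glucose-added libraries, against 168 and 152 CPM in willow libraries (log2 fold change 1.80 ± 0.35, edgeR adjusted p = 2.5e-04). For gpdA the values were 877 and 1140 CPM in glucose-added and 340 and 385 CPM in willow libraries (1.48 ± 0.37, edgeR adjusted p = 0.0029). For both genes the groups were well apart, and both were called under all 17 alternatives.

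Enolase had 1010 and 916 CPM in glucose-added and 370 and 426 CPM in willow libraries (1.28 ± 0.33, edgeR adjusted p = 0.0041). Pyruvate kinase transcripts (pkiA) were at 634 and 587 CPM in glucose-added and 250 and 208 CPM in willow libraries (1.41 ± 0.33, edgeR adjusted p = 0.00166). Each was called in all 6 fits that left out 1 library, and each lost its call under 1 alternative, the deposited RPKM values without a filter on low values (limma-trend adjusted p = 0.0645 for enolase and 0.0574 for pkiA).

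The other 5 genes did not pass the test. Triose phosphate isomerase (tpiA) was at 463 and 391 CPM in glucose-added and 292 and 277 CPM in willow libraries (0.59 ± 0.32, edgeR adjusted p = 0.163). Under scaling by total counts, where the median of all genes moved by 0.30, tpiA (0.89, adjusted p = 0.0356) and pgiA (0.87, adjusted p = 0.0494) were called as well. The pgiA values were 491 and 326 CPM in glucose-added and 287 and 266 CPM in willow libraries (0.57 ± 0.34). Aldolase had 743 and 546 CPM in glucose-added and 742 and 454 CPM in willow libraries (0.11 ± 0.34), and these ranges overlapped almost fully.

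Among the sugar kinases, hxk had 87.7 and 74.0 CPM in glucose-added and 71.8 and 33.2 CPM in willow libraries (0.60 ± 0.44, edgeR adjusted p = 0.303), with log2 fold changes from 0.18 without willow B to 1.28 without willow A. Glucokinase transcripts (GlkA) were at 188 and 250 CPM in glucose-added and 128 and 213 CPM in willow libraries (0.36 ± 0.35, edgeR adjusted p = 0.442). The GlkA groups overlapped, and the hxk groups were separated by less than the spread of the willow pair.

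The third comparison set the glucose-added cultures against the glucose cultures of 48 h. These differ in washing and transfer, in time on willow, in age and in how long glucose had been present, and these cannot be told apart. Of the 10 genes, pfkA was higher and none was lower, where 18.9% of all genes tested were called, 10.0% higher and 8.87% lower (edgeR adjusted p under 0.05). The median log2 fold change was 0.26 over the 10 genes, beside 0.00 over all genes tested. Transcripts of pfkA had 671 and 599 CPM in glucose-added libraries, against 79.5 and 163 CPM in glucose libraries. The glucose cultures differed 2.05-fold from each other, and both were far below the glucose-added ones. The log2 fold change was 2.38 ± 0.36, or 5.21-fold (edgeR adjusted p = 4.1e-05). It was 1.96 without glucose A and 2.99 without glucose B, and it was lost under 1 alternative, the deposited RPKM values without a filter (1.85, limma-trend adjusted p = 0.123).

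None of the lower-pathway genes that had been low on willow was called in this comparison. Their log2 fold changes were all positive, from 0.09 to 0.53. With 2 cultures per group, the lack of a call does not show that they were back at their glucose level. Values for pgkA were 468 and 654 CPM in glucose-added and 465 and 585 CPM in glucose libraries (0.09 ± 0.32, edgeR adjusted p = 0.894). For gpdA they were 877 and 1140 CPM in glucose-added and 591 and 1145 CPM in glucose libraries (0.21 ± 0.35, adjusted p = 0.754 by edgeR). In both genes the ranges overlapped.

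Enolase was at 1010 and 916 CPM in glucose-added and 823 and 745 CPM in glucose libraries (0.30 ± 0.32), and pkiA at 634 and 587 CPM in glucose-added and 444 and 404 CPM in glucose libraries (0.53 ± 0.32, edgeR adjusted p = 0.276). Neither pair of groups overlapped, and neither gene passed the test.

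The next largest values belonged to GlkA, at 188 and 250 CPM in glucose-added and 118 and 120 CPM in glucose libraries (0.87 ± 0.34, edgeR adjusted p = 0.0790), and tpiA, at 463 and 391 CPM in glucose-added and 292 and 221 CPM in glucose libraries (0.74 ± 0.32, adjusted p = 0.116). Both were higher in each glucose-added library than in each glucose library, without a call. Groups of 2 libraries can separate readily without a difference, here and for enolase and pkiA. The share of all genes tested that separated in this way was not counted. For hxk (-0.03 ± 0.41), aldolase (0.09 ± 0.34) and pgiA (0.14 ± 0.33) the groups overlapped.

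**Figure D3:**
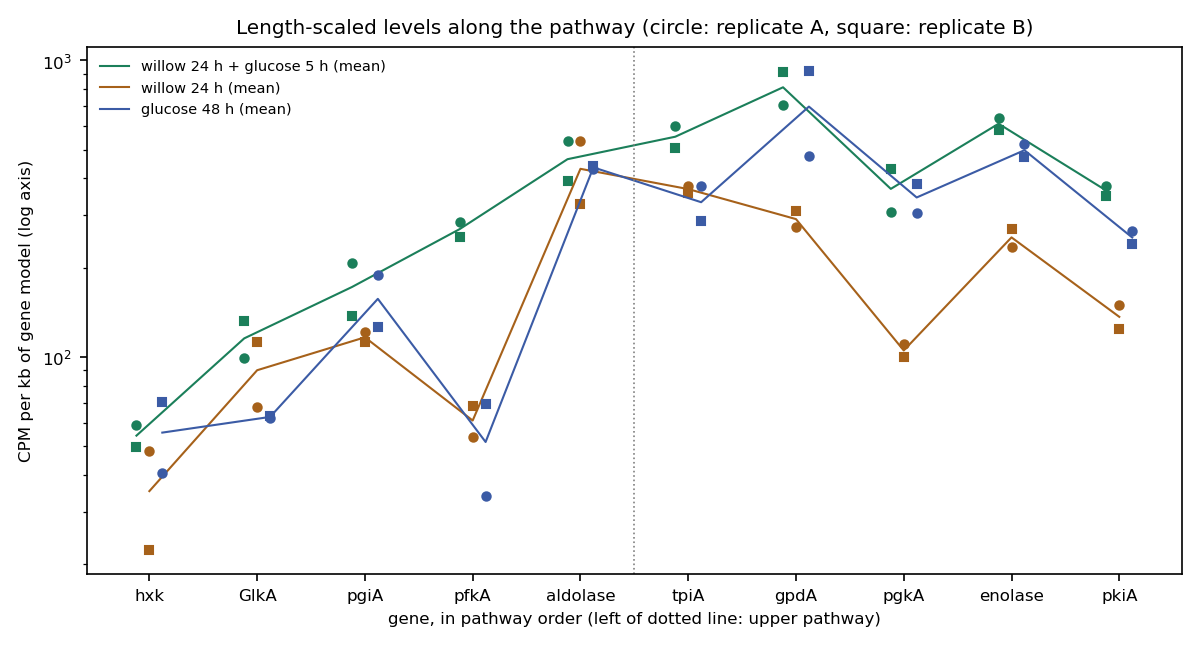
Level per kb of gene model (y axis, log scale) of the 10 genes in pathway order (x axis), with points for single libraries (circle A, square B) and lines for the means of the 3 conditions. At pfkA the glucose-added line (mean 270 CPM per kb) runs above the willow (61.0) and glucose (51.6) lines, and from gpdA to pkiA the willow line runs below the other lines.

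Levels of different genes were compared per kb of gene model. On this scale the 10 genes spanned 15-fold in glucose-added, 12.2-fold in willow and 13.5-fold in glucose cultures. In glucose-added cultures gpdA (812 ± 150 CPM per kb) stood first and hxk (54.2 ± 6.49) last. On willow aldolase (431 ± 147 CPM per kb) and tpiA (368 ± 13.7), whose ranges overlapped, stood above gpdA (292 ± 25.7). On glucose gpdA (699 ± 315 CPM per kb) and enolase (498 ± 35.1) led with overlapping ranges.

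The lowest place on glucose was held by pfkA at 51.6 ± 25.2 CPM per kb, with a range that overlapped those of hxk (55.5 ± 21.3) and GlkA (62.7 ± 0.650). On willow pfkA, at 61.0 ± 10.3 CPM per kb, stood above hxk and overlapped GlkA (90.1 ± 31.6). After glucose addition it reached 270 ± 21.6 CPM per kb, above pgiA (172 ± 49.2) and both sugar kinases, with no overlap. Set among all genes tested in the same library, pfkA exceeded 94.1% and 92.9% of them in glucose-added, 65.0% and 71.0% in willow, and 53.0% and 73.2% in glucose libraries. Aldolase exceeded at least 93.5% of genes in every library.

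Ratios between genes of one library do not depend on how libraries are scaled. Of the summed deposited RPKM of the 10 genes, the 5 upper-pathway genes made up 31.1% and 25.8% in glucose-added, 41.9% and 35.6% in willow, and 28.0% and 25.0% in glucose libraries. Both willow libraries were above the other 4. The mean share differed by 12.2 percentage points in willow minus glucose cultures and by -10.3 points in glucose-added minus willow cultures. With 2 libraries against 2, the exact permutation test (two-sided) cannot give a p below 0.333, which is what both contrasts gave. The share of gpdA, pgkA, enolase and pkiA together ran the other way, at 53.2% and 60.8% in glucose-added, 39.0% and 44.6% in willow, and 58.0% and 65.7% in glucose libraries. These are the genes called lower on willow above, so their low willow share restates those calls and is not separate support.

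Within the upper pathway, pfkA made up 24.1% and 26.3% of the summed RPKM in glucose-added libraries, 6.50% and 10.6% in willow and 4.48% and 9.02% in glucose libraries. The willow and glucose ranges overlapped and the glucose-added ones lay far above (exact permutation p = 0.333 against either, the smallest possible). As pfkA was the only upper-pathway gene called above, its share restates those calls and is not separate support. Of the RPKM of both sugar kinases, hxk held 37.3% and 27.4% in glucose-added, 41.6% and 16.5% in willow, and 39.4% and 52.8% in glucose libraries. These shares rest on 89 to 223 counts per library, and the spread of the willow pair covers most of the range.

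**Figure D4:**
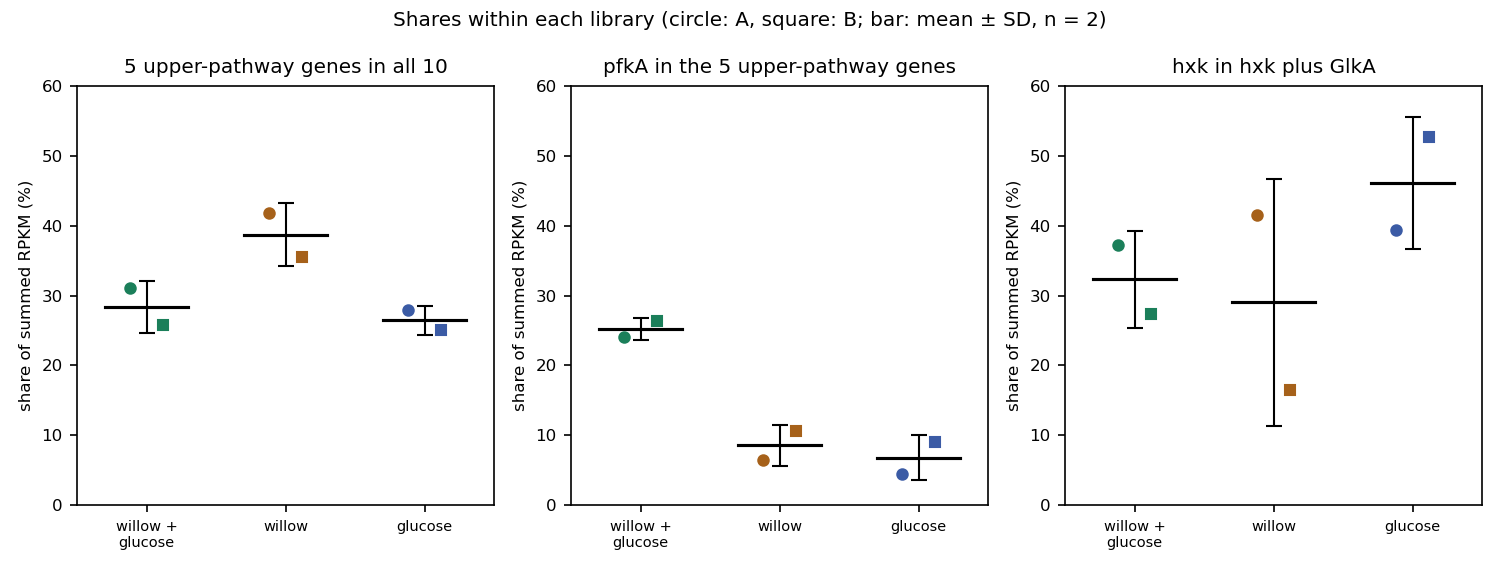
Share of summed deposited RPKM in percent (y axis, 0 to 60) in single libraries of the 3 conditions (x axis; circle A, square B; bars mean ± SD, n = 2) for the upper pathway in all 10 genes, pfkA in the upper pathway, and hxk in the pair of sugar kinases. The pfkA share averages 25.2% in glucose-added, 8.57% in willow and 6.75% in glucose cultures, while the hxk share scatters widely.

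To ask which members moved relative to their own pathway, each gene was also fitted with libraries scaled to the summed counts of the other 9, a setting chosen after the data had been seen. In glucose-added against willow cultures, pfkA remained higher (1.18 ± 0.37, edgeR adjusted p = 0.0117), and aldolase, which had not been called on the scale of all genes, was lower than the rest (-1.14 ± 0.36, adjusted p = 0.00905). The 4 lower-pathway genes were not called on this scale (0.25 to 0.83). These 4 genes made up 53.1% and 60.1% of the counts of the 10 in glucose-added and 40.6% and 45.5% in willow libraries. A gene with little change on the scale of all genes, such as aldolase (0.11), therefore comes out lower on this scale. Calls on this scale thus depend on those above and are not separate support. In glucose-added against glucose cultures, pfkA was again the member called (2.11 ± 0.37, edgeR adjusted p = 2.5e-04). In willow against glucose cultures, GlkA was higher than the rest (1.22 ± 0.38, edgeR adjusted p = 0.0135) and pgkA lower (-1.18 ± 0.35, adjusted p = 0.0127), while gpdA, enolase and pkiA were not called.

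By the root mean square difference of centred log2 CPM over the 6 libraries, pkiA (0.21) and enolase (0.23) followed the mean pattern of the 10 genes most closely and pfkA (0.82) least. That mean includes each member itself and none of the other genes, so distances of members and other genes are not like for like. Among 3078 other genes with a mean of at least 50 CPM, An02g03010 (0.06), An15g06820 (0.07), An15g06370 (0.12), An16g03340 (0.12) and An09g04900 (0.13) were nearest to that mean. For example, An02g03010 averaged 346 ± 14.3 CPM in glucose-added, 169 ± 4.20 CPM in willow and 248 ± 32.4 CPM in glucose cultures. Nearest to pfkA were An12g00890 (0.29), An18g05870 (0.29) and An11g02850 (0.29), with An12g00890 at 129 ± 22.1 CPM in glucose-added, 22.3 ± 3.76 CPM in willow and 21.8 ± 1.70 CPM in glucose cultures. None of these genes has a RefSeq symbol.

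Around the pathway, 14 related genes were listed, of which 5 have a RefSeq symbol and 12 were tested. The list was drawn up to cover gluconeogenesis, trehalose and glycerol as well as pyruvate fate and the pentose phosphate pathway. Its counts and medians therefore pool genes of unlike roles. On willow against glucose, 3 of the 12 were higher and 5 lower, beside 17.6% and 13.5% of all genes tested, with a median log2 fold change of -0.46 over the 12 and -0.08 over all genes. In glucose-added against willow cultures 5 were higher and 3 lower, beside 17.2% and 20.5% of all genes, with medians of 0.19 and 0.04. In glucose-added against glucose cultures 4 were higher and 1 lower, beside 10.0% and 8.87% of all genes (edgeR adjusted p under 0.05), with medians of 0.44 and 0.00. The largest changes among them were in An02g06820 and An11g02550, which have no RefSeq symbol. The first was lower on willow than on glucose (-3.57 ± 0.46, edgeR adjusted p = 1.3e-06) and higher in glucose-added than in willow cultures (4.95 ± 0.49, adjusted p = 2.9e-08), and the second was higher on willow than on glucose (3.97 ± 0.43, adjusted p = 6.6e-08).

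Pyruvate carboxylase (pyc), which turns pyruvate into oxaloacetate, had 1274 and 1371 CPM in glucose-added, 194 and 357 CPM in willow, and 750 and 779 CPM in glucose libraries. It was lower on willow than on glucose (-1.48 ± 0.36, edgeR adjusted p = 0.0025) and higher in glucose-added than in willow cultures (2.27 ± 0.37, adjusted p = 3.5e-05). The alcohol dehydrogenase gene adhA was higher in glucose-added than in glucose cultures, at 19626 and 19516 CPM against 6022 and 6250 CPM (1.67 ± 0.43, edgeR adjusted p = 0.00767). It was lower on willow, at 1424 and 1259 CPM (-2.19 ± 0.44 against glucose, adjusted p = 4.0e-04 by edgeR).

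The gene gsdA encodes glucose-6-phosphate dehydrogenase, which draws glucose-6-phosphate into the pentose phosphate pathway. It had 553 and 391 CPM in glucose-added, 453 and 299 CPM in willow, and 1144 and 837 CPM in glucose libraries. It was lower on willow than on glucose (-1.39 ± 0.35, edgeR adjusted p = 0.00337), and it was also lower in glucose-added than in glucose cultures (-1.06 ± 0.35, adjusted p = 0.0327). Trehalose phosphate synthase, which uses glucose-6-phosphate on the way to the storage sugar trehalose, is encoded by tpsA and tpsB. Transcripts of tpsB had 175 and 229 CPM in glucose-added, 562 and 650 CPM in willow, and 191 and 265 CPM in glucose libraries, and were higher on willow than on glucose (1.41 ± 0.33, edgeR adjusted p = 0.00183). For tpsA the values were 154 and 183 CPM in glucose-added, 300 and 299 CPM in willow, and 211 and 144 CPM in glucose libraries (0.76 ± 0.33 on willow against glucose, edgeR adjusted p = 0.0849).

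**Figure D5:**
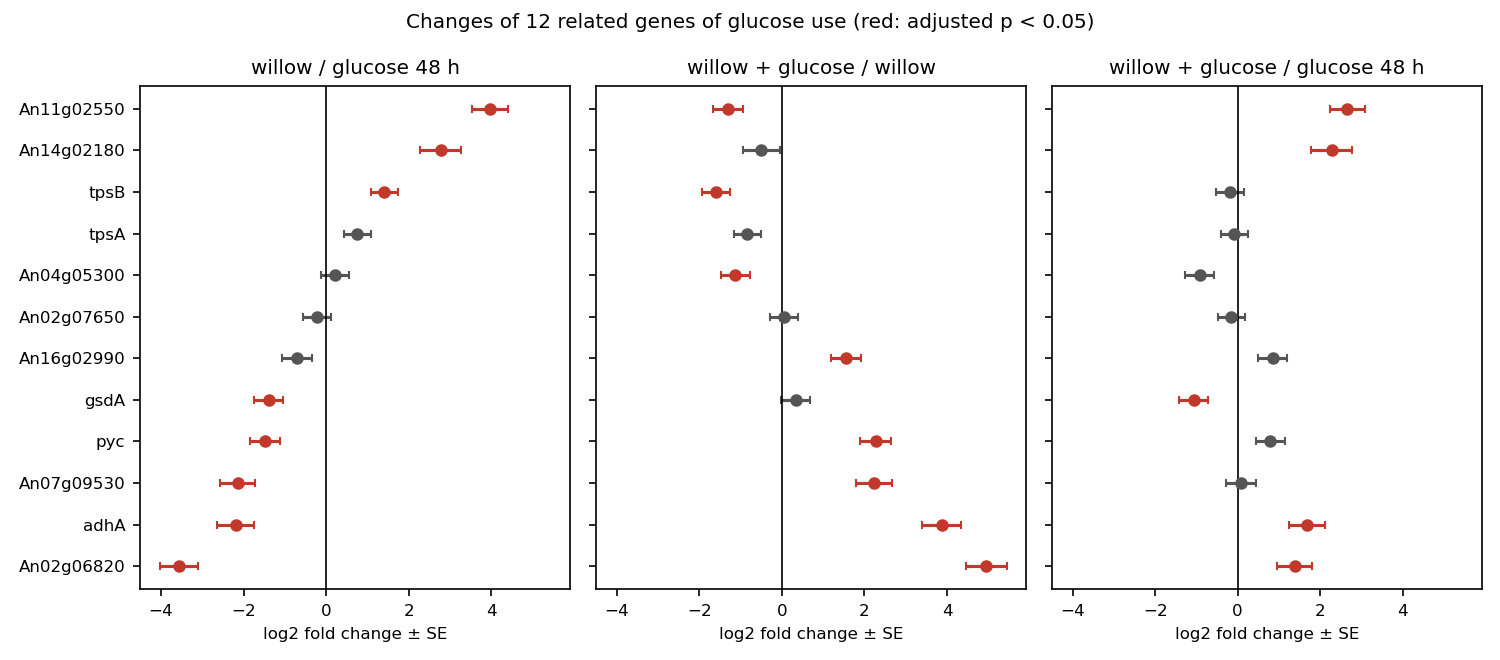
Log2 fold change ± SE (x axis) of the 12 tested related genes (y axis, ordered by the left panel) in the 3 comparisons, with calls in red. Between glucose-added and willow cultures pyc and adhA are higher and tpsB is lower, and gsdA is not called.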

How the data were processed

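The authors deposited, per the file headers, counts (whole reads per gene) and RPKM values for each of 6 libraries. Ribosomal RNA was depleted and SOLiD paired-end libraries were sequenced, per the labels' protocols, and the submitters' processing notes list HTSeq. For the aligner and the genome build, a name is not given in the sources used here, and no coordinates are printed. The deposited RPKM were scaled by the authors to all reads, since the gene lengths they then imply were whole numbers of bases (tolerance 0.01) for 100% of genes above 20 counts. Another 5 entries of reads counted to no gene (96.9% to 98.5%) were left out. Multiply aligned reads were 58.4% to 75.7% and were not counted to genes, so values of genes with close relatives are uncertain. Use of strand in counting is not given in the sources used here.

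Counts were tested with edgeR 4.0.16 (R 4.3.3; glmQLFTest, TMM, filterByExpr, Benjamini-Hochberg adjustment over 6181 genes, threshold 0.05) in one fit of all 6 libraries with 3 residual degrees of freedom. The procedure was tested on simulated counts. SE is the log2 fold change over the square root of F. Shares were compared with exact permutation tests. Alternatives used DESeq2 1.42.0, limma 3.58.1 on log2 of RPKM plus 0.1 or 1, other scalings and filters, and each library left out. Named genes are the 10 members, the nearest genes by pattern (5 to their mean, 3 to pfkA) and a list of related genes. Members and lists were chosen with earlier results of these data known. Replicates are cultures that the series calls duplicates. Gene symbols are from RefSeq (ASM285v2).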

Additional observations from a re-analysis of the deposited data

How the results depend on the processing

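The 10 calls among 30 member comparisons were followed through 17 alternatives (170 values): 153 stayed called in the same direction, 17 were lost and 0 changed sign. Members called lower on willow against glucose ranged from 1 to 3 when 1 library was left out, and were 4 in the main test. On RPKM without a filter on low values, with more genes tested, 3 instead of 5 members were higher in glucose-added against willow cultures and 0 instead of 1 against glucose. The letters A and B are not stated to mark a shared batch, and differences between A and B correlated across genes at -0.01 (willow and glucose), 0.17 (glucose-added and willow) and 0.12 (glucose-added and glucose). The upper-pathway share of summed RPKM was higher in A than in B in each condition, and the cause was not tested. With the letter as a replicate block, 2 instead of 1 members were higher in glucose-added against glucose cultures, the second being GlkA (0.86, edgeR adjusted p = 0.0481), and no other member's call changed. As shares of counts instead of RPKM, the upper pathway made up 35.7% in glucose-added, 46.3% in willow and 31.4% in glucose cultures, which weights long genes more. Left to single libraries, the upper-pathway share ranged from 25.8% to 31.1% in glucose-added, 35.6% to 41.9% in willow and 25.0% to 28.0% in glucose cultures, and the hxk share from 27.4% to 37.3% in glucose-added, 16.5% to 41.6% in willow and 39.4% to 52.8% in glucose cultures.

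Signs changed only for values that were not called on the scale of all genes. The median of all genes moved by -0.43 (willow against glucose), 0.30 (glucose-added against willow) and -0.14 (glucose-added against glucose) with total-count scaling, by -0.12 (willow against glucose) and 0.12 (glucose-added against willow) with upper quartile scaling, by -0.93, 0.47 and -0.46 on RPKM with pseudocount 0.1, by -0.35, 0.15 and -0.20 with pseudocount 1, and by -0.12 in willow against glucose without a count filter. On willow against glucose, aldolase was at 0.043 with RLE scaling, 0.079 with at least 50 counts in 2 libraries, 0.043 with DESeq2 and 0.011 with both groups alone. With total-count scaling pfkA was at -0.19 and tpiA at -0.29. On RPKM, GlkA was at -0.62, pfkA at -0.75 and tpiA at -0.96 with pseudocount 0.1, with or without the filter, and at -0.41, -0.46 and -0.86 with pseudocount 1. In glucose-added against willow cultures, aldolase was at -0.0034 with at least 50 counts in 2 libraries. In glucose-added against glucose cultures, total-count scaling gave -0.0012 for pgiA, -0.041 for aldolase and -0.052 for pgkA. RPKM with pseudocount 0.1, with or without the filter, gave -0.41 for pgiA, -0.48 for aldolase, -0.27 for gpdA, -0.47 for pgkA, -0.26 for enolase and -0.028 for pkiA, and with pseudocount 1 -0.31, -0.43, -0.26, -0.42, -0.23 and -0.015.

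With 1 library left out, willow against glucose ranged from -0.23 to 0.80 for pfkA, -0.081 to 0.32 for tpiA and -0.42 to 0.28 for aldolase. Glucose-added against willow ranged from -0.20 to 0.50 for aldolase. Glucose-added against glucose ranged from -0.37 to 0.43 for hxk, -0.19 to 0.46 for pgiA, -0.15 to 0.29 for aldolase, -0.18 to 0.77 for gpdA and -0.17 to 0.32 for pgkA. Scaled to the other 9 members, willow against glucose was 0.0054 for hxk, 0.20 for pgiA and 0.76 for aldolase. Glucose-added against willow was -0.45 for hxk, -0.75 for GlkA, -0.53 for pgiA, -1.14 for aldolase and -0.51 for tpiA. Glucose-added against glucose was -0.34 for pgiA, -0.38 for aldolase, -0.25 for gpdA, -0.35 for pgkA and -0.16 for enolase. The cause was not tested. At this depth, hxk, with 12 to 87 counts per library, has the least precise values of the 10.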
